A study of Mus musculus with 36 samples.

Results

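Intraepithelial lymphocyte (IEL) preparations of the mouse small intestine were compared with whole small intestine, over all genes. The comparison took every library of both kinds with a deposited gene count file, which gave 8 of the 36 samples of the series: 4 IEL preparations and 4 pieces of whole tissue. All mice carried DQ8 and had been challenged with gluten. In each preparation 2 libraries came from mice with lnc13, a long noncoding RNA (lnc13-WT-DQ8), and 2 from mice without it (lnc13-KO-DQ8), and genotype was a covariate. The labels give no age, sex or gluten dose and no isolation steps or gate for the cells. They also do not name the animal behind a library, so p-values measure the spread between these libraries. Tissue had been flash frozen, ground under liquid nitrogen and extracted with TRIzol, whereas RNA of cells was extracted with a column kit (Quick-RNA Miniprep, Zymo). Preparation and extraction therefore cannot be told apart in any difference from tissue. The RNA of lnc13 was not analysed here.

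The lining of the small intestine is a single sheet of epithelial cells, most of them absorptive enterocytes, with T cells lodged between them. These intraepithelial lymphocytes are mostly CD8 T cells that carry either alpha beta or gamma delta receptors, hold cytotoxic granules and are kept in place by integrin alpha E beta 7, which binds E-cadherin on enterocytes. Below the sheet lie the lamina propria with its vessels, fibroblasts and immune cells, and then layers of smooth muscle that hold the enteric neurons. Whole tissue holds all of these, while an IEL preparation is made from what detaches with the epithelium. In such bulk RNA, fewer cells of a type and less RNA per cell cannot be told apart.

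Reads in genes numbered 10186522 to 13620975 per library. Levels are in CPM, the reads of a gene scaled to 1000000 reads of the library by TMM, and 4 values of a preparation are given in the order WT replicate 1, WT replicate 2, KO replicate 1, KO replicate 2. By edgeR's quasi-likelihood test, with Benjamini-Hochberg adjustment and a threshold of 0.05, 3188 of 13069 genes tested (24.4%) were higher in IEL preparations and 3304 (25.3%) lower, so about this share of any list is the background for the counts that follow. A log2 difference is IEL minus tissue. Its median over all genes was 0.05, and it became 0.17 with upper quartile scaling and 0.25 with library totals alone. The share of calls that were higher moved from 49.1% to 57.8% and 62% under those scalings. The first principal component, which held 76.7% of the variance, separated the preparations. Libraries also differed within a preparation. Both tissue libraries numbered 2 came from males by Y-linked Ddx3y (31.6 and 35.4 CPM), which was at most 0.102 CPM in the other 6 libraries. These tissue libraries also had more smooth muscle RNA and less of the proximal intestinal gene Lct than those numbered 1. Both IEL libraries numbered 2 had more T cell RNA than those numbered 1. Within a preparation, libraries of the same number in WT and KO correlated at 0.978 to 0.985 over log2 CPM, and libraries of different numbers at 0.936 to 0.974. How much these differences contributed was not tested. Of 724 listed symbols 616 passed the filter on low counts. A gene near 0 in one preparation passes that filter only through the other, so a count over tested members is not one over a whole list.

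**Figure D1:**
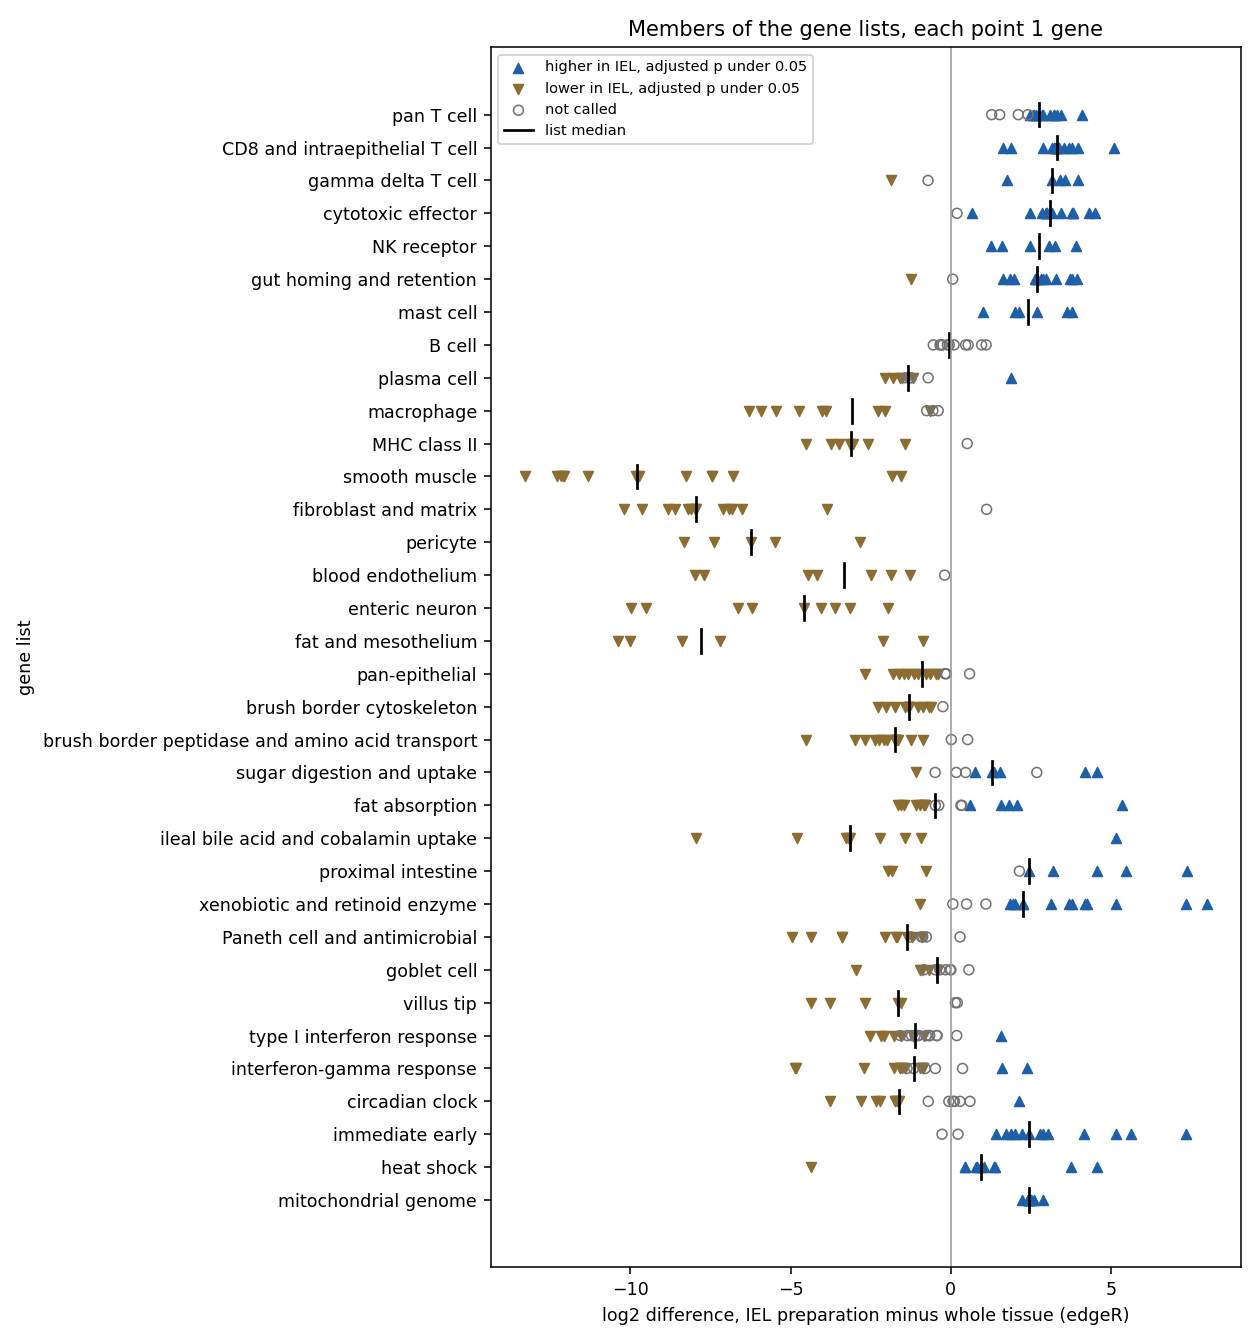
Log2 difference, IEL preparation minus whole tissue, of each tested gene in 34 gene lists (1 point a gene, 1 row a list, 4 libraries a preparation). Triangles pointing up passed the edgeR test as higher and those pointing down as lower, open circles did not pass, and a black bar marks the median of a list. T cell lists lie to the right of 0 and smooth muscle, fibroblast and pericyte lists far to the left.

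T cell genes were higher in IEL preparations. Of 17 general T cell genes 13 were higher and 0 lower, with a median log2 of 2.76, and the list's summed level was 44.6 to 77.5 CPM in tissue and 189 to 782 CPM in IEL preparations. Cd3e, a signalling chain of the T cell receptor complex (gene ID 12501, GRCm38.p6 chromosome 9, 44998735 to 45009663), was at 5.97, 3.07, 11.7 and 3.72 CPM in tissue and 24.2, 74.0, 27.5 and 51.9 CPM in IEL preparations. Every IEL library lay above every tissue library, and the IEL libraries numbered 2 lay above those numbered 1. Its level was 7.43-fold higher (log2 2.89, SE 0.53, edgeR adjusted p = 0.00292). Zap70, a kinase just downstream of the receptor, stood at 2.98, 2.99, 3.05 and 2.96 CPM in tissue and 18.1, 51.9, 15.6 and 36.0 CPM in IEL preparations. The tissue values were almost equal and the groups did not overlap. The difference was 10.04-fold higher (log2 3.33, SE 0.41, edgeR adjusted p = 0.000574). Lck, the kinase that starts receptor signalling, was 9.25-fold higher (log2 3.21, SE 0.50, edgeR adjusted p = 0.00145), and Trbc1, a constant region of the receptor's beta chain, was 8.53-fold higher (log2 3.09, SE 0.46, edgeR adjusted p = 0.00111).

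All 14 tested members of the list of CD8 and intraepithelial T cells passed as higher, with a median log2 of 3.31. Cd8a encodes the alpha chain of CD8, which gut T cells can carry as a homodimer. It was at 10.8, 8.89, 19.7 and 8.43 CPM in tissue and 62.9, 193, 68.3 and 152 CPM in IEL preparations. Groups did not overlap, and the difference was 10.04-fold higher (log2 3.33, SE 0.47, edgeR adjusted p = 0.000976). The beta chain gene Cd8b1, which marks conventional CD8 T cells, was at 1.57, 0.613, 3.86 and 1.31 CPM in tissue and 1.46, 26.3, 1.86 and 22.1 CPM in IEL preparations. Only the IEL libraries numbered 2 stood above tissue, and those numbered 1 lay inside the tissue range. The difference was 7.44-fold higher (log2 2.90, SE 1.05, edgeR adjusted p = 0.0485), and log2 was 2.86 without WT tissue replicate 1 (edgeR adjusted p = 0.099), 2.53 without WT tissue replicate 2 (edgeR adjusted p = 0.1228), 3.45 without KO tissue replicate 1 (edgeR adjusted p = 0.0503), 2.75 without KO tissue replicate 2 (edgeR adjusted p = 0.0959), 1.58 without WT IEL replicate 2 (edgeR adjusted p = 0.197) and 2.30 without KO IEL replicate 2 (edgeR adjusted p = 0.222). Without both IEL libraries numbered 2 the log2 difference of Cd8b1 was -0.01. Cd7, a surface receptor of intraepithelial T cells, was 11.7-fold higher (log2 3.55, SE 0.41, edgeR adjusted p = 0.000446), and Il2rb, the receptor chain that reads IL-15 and IL-2, was 12.9-fold higher (log2 3.69, SE 0.38, edgeR adjusted p = 0.000294).

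Gamma delta receptor genes rose as well. The list had 7 tested members of 9, of which 5 were higher and 1 lower. Trdc, the constant region of the delta chain, was at 2.82, 2.30, 2.84 and 1.97 CPM in tissue and 21.2, 45.4, 23.9 and 29.2 CPM in IEL preparations. No library overlapped, and the difference was 11.9-fold higher (log2 3.58, SE 0.28, edgeR adjusted p = 0.000135). Trgc1, a constant region of the gamma chain, was 9.01-fold higher (log2 3.17, SE 0.28, edgeR adjusted p = 0.000172). Segments of the receptor are close copies of each other, so reads could be split between Trgc1 and Trgc4. Sox13, a transcription factor of gamma delta T cells in the thymus, went the other way at 98.6 to 181 CPM in tissue and 32.8 to 46.9 CPM in IEL preparations (log2 -1.86, edgeR adjusted p = 0.000268). Its tissue level was far above that of Trdc, and which cells made it was not tested.

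Of 18 cytotoxic effector genes 14 were tested, and 13 were higher and 0 lower, with a median log2 of 3.08. Gzma encodes a granule protease that is released into target cells. Its level was 46.6, 43.6, 91.9 and 24.3 CPM in tissue and 159.5, 762, 210.3 and 498 CPM in IEL preparations. The IEL libraries numbered 2 were again the highest, and the difference was 7.89-fold higher (log2 2.98, SE 0.61, edgeR adjusted p = 0.00477). For Gzma log2 was 2.29 with WT IEL replicate 2 left out. Ctsw, a cathepsin of cytotoxic cells, was 13.7-fold higher (log2 3.78, SE 0.48, edgeR adjusted p = 0.000647), and Xcl1, a chemokine that attracts cross-presenting dendritic cells, was 8.10-fold higher (log2 3.02, SE 0.41, edgeR adjusted p = 0.000783). Of 15 NK receptor genes 6 were tested, and 6 were higher, including Klrd1, the CD94 chain of an inhibitory receptor, at 0.580 to 1.52 CPM in tissue and 10.02 to 30.6 CPM in IEL preparations (log2 3.91, edgeR adjusted p = 0.000556). Without both IEL libraries numbered 2, 2 NK receptor genes and 10 cytotoxic genes were higher.

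Homing and retention genes followed: 13 of 15 were higher and 1 lower. Itgae, the alpha E chain that holds these cells to E-cadherin, was at 7.79, 10.04, 16.1 and 6.46 CPM in tissue and 66.1, 248, 80.2 and 166 CPM in IEL preparations. Its difference was 13.8-fold higher (log2 3.79, SE 0.52, edgeR adjusted p = 0.000836), without overlap. Ccr9, the receptor that draws lymphocytes to the small intestine, was at 2.49 to 4.06 CPM in tissue and 11.01 to 52.9 CPM in IEL preparations and 9.80-fold higher (log2 3.29, SE 0.55, edgeR adjusted p = 0.00195). For Ccr9 log2 was 2.59 with WT IEL replicate 2 left out. The member that was lower was Itgb1, an integrin chain of many cell types, at 310.5 to 538 CPM in tissue and 162 to 189 CPM in IEL preparations (log2 -1.23, edgeR adjusted p = 0.00156). Of 11 CD4 and regulatory T cell genes 6 were tested, and 3 were higher and 1 lower. Cd4 and Cxcr5 did not pass, and Foxp3, Il2ra, Cd40lg, Il10 and Tnfrsf4 were too low to be tested. Ikzf2, the transcription factor Helios, was 6.72-fold higher (log2 2.75, SE 0.38, edgeR adjusted p = 0.000895). Zbtb7b, which sets the CD4 lineage in T cells, was lower at 333 to 461 CPM in tissue and 178 to 238 CPM in IEL preparations (log2 -0.94, edgeR adjusted p = 0.00121). In tissue it stood far above Cd3e, and which cells made it was not tested.

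**Figure D2:**
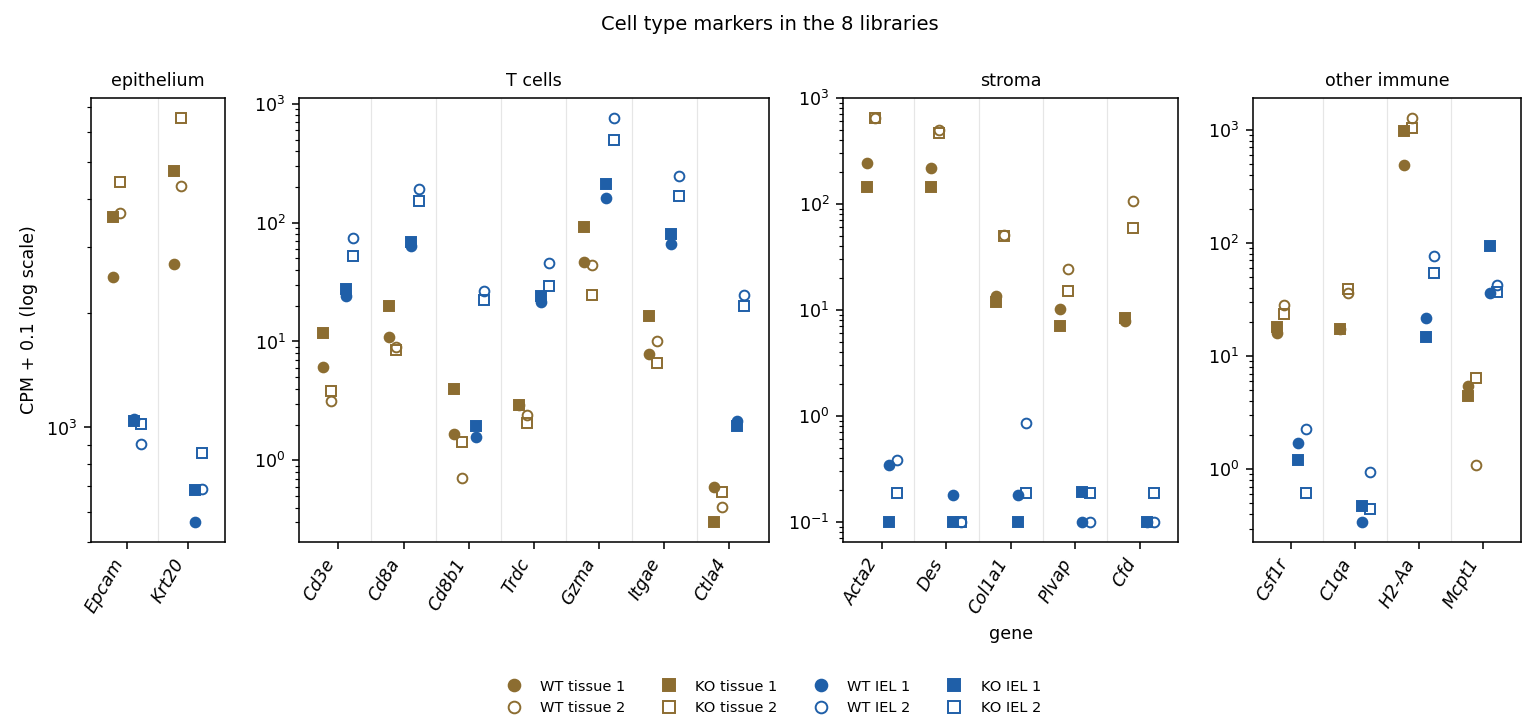
Level of marker genes in each of the 8 libraries, as CPM + 0.1 on a log axis. Brown marks tissue and blue IEL preparations, circles WT and squares KO, filled symbols replicate 1 and open symbols replicate 2. Blue points lie above brown ones for Cd3e, Cd8a, Trdc, Gzma and Itgae, and below them for Acta2, Des, Plvap and C1qa. For Cd8b1 the open blue points lie above the brown ones and the filled blue points among them.

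Genes of the muscle wall were lower in IEL preparations. Of 15 smooth muscle genes 14 were tested and 14 were lower, with a median log2 of -9.79. Their summed level was 1281 to 4695 CPM in tissue and 166 to 186 CPM in IEL preparations. The myosin kinase gene Mylk, which cells other than muscle also use, held most of the IEL sum at 305 to 558 CPM in tissue and 143.8 to 169 CPM in IEL preparations (log2 -1.54, edgeR adjusted p = 0.000929). Acta2, smooth muscle actin (gene ID 11475, GRCm38.p6 chromosome 19, 34240336 to 34255585), was at 245, 645, 143.5 and 648 CPM in tissue and 0.243, 0.282, 0 and 0.0865 CPM in IEL preparations. Tissue libraries numbered 2 had the most, and no IEL library passed 0.282 CPM. Its difference was 2577-fold lower (log2 -11.33, SE 0.85, edgeR adjusted p = 0.000115). Des, the muscle intermediate filament desmin, was at 219.9, 501, 143.4 and 464 CPM in tissue and 0.0809, 0, 0 and 0 CPM in IEL preparations. A single read of Des was counted in the 4 IEL libraries, in WT IEL replicate 1, and tissue was 15259 times higher by summed reads (95% exact counting interval 2738 to 602736). Its call passed (edgeR adjusted p = 6.11e-05). Actg2, the enteric smooth muscle actin, had 2 reads in IEL preparations, where it was 5838-fold lower by summed reads (95% exact counting interval 1616 to 48214).

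Genes of fibroblasts, pericytes and vessels were lower as well. Of 14 tested fibroblast and matrix genes 13 were lower, with a median log2 of -7.96 (-7.79 with a gene of 0 IEL reads at its bound). Col1a1, a chain of type I collagen, was at 13.5, 50.8, 11.8 and 49.9 CPM in tissue and 0.0809, 0.752, 0 and 0.0865 CPM in IEL preparations. Groups did not overlap (log2 difference -7.11, SE 0.92, edgeR adjusted p = 0.000683), and log2 was -8.86 with WT IEL replicate 2 left out. Grem1, a BMP antagonist of fibroblasts beneath the crypts, had 0 reads in IEL preparations and was at least 199-fold lower there than in tissue. Of 7 pericyte genes 5 were tested and 5 were lower (median -6.24), as were 7 of 8 blood endothelial genes (median -3.33) and 3 of 5 lymphatic endothelial genes (median -2.87). Plvap, the diaphragm protein of fenestrated capillaries, was at 10.03, 24.1, 7.00 and 15.1 CPM in tissue and 0, 0, 0.0928 and 0.0865 CPM in IEL preparations. It was 330.1-fold lower by summed reads (95% exact counting interval 91.01 to 2732) in IEL preparations (edgeR adjusted p = 0.00017). Cdh5, the endothelial cadherin, was too low to be tested, at 0.711 to 5.29 CPM in tissue and 0.0865 to 0.470 CPM in IEL preparations. Of the blood endothelial genes 4 were lower without the tissue libraries numbered 2.

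Enteric neuron and fat genes were lower too. Of 15 enteric neuron genes 9 were tested and 9 were lower, with a median log2 of -4.57. Tubb3, the neuronal tubulin, was at 2.57 to 8.36 CPM in tissue and 0.173 to 0.470 CPM in IEL preparations (log2 -4.05, edgeR adjusted p = 0.000935). Of 9 enteric glia genes only Erbb3, a receptor that epithelium makes too, was tested, at 148.2 to 384 CPM in tissue and 155 to 270.4 CPM in IEL preparations (log2 -0.32, edgeR adjusted p = 0.448). It did not pass, and its log2 was 0.30 without both tissue libraries numbered 2. Of 12 genes of fat and mesothelium 6 were tested and 6 were lower, with a median log2 of -7.79 (-7.36 with genes of 0 IEL reads at their bounds). Upk1b, a uroplakin that mesothelium makes, was at 6.96, 14.6, 8.53 and 19.5 CPM in tissue and 1.86, 2.82, 3.25 and 3.54 CPM in IEL preparations. Tissue libraries numbered 2 were again the highest, and the difference was 4.34-fold lower (log2 -2.12, SE 0.35, edgeR adjusted p = 0.00189).

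Immune cells of the lamina propria did not move as a block. Macrophage genes were lower, 9 of 12 tested, with a median log2 of -3.07. Csf1r, the receptor that keeps macrophages alive, was at 15.8, 28.0, 18.0 and 23.4 CPM in tissue and 1.62, 2.16, 1.11 and 0.519 CPM in IEL preparations. It was 16.4-fold lower (log2 -4.03, SE 0.36, edgeR adjusted p = 0.000177). C1qa, a complement chain made by resident macrophages, was at 17.1, 36.2, 17.2 and 38.7 CPM in tissue and 0.243, 0.846, 0.371 and 0.346 CPM in IEL preparations. The lowest tissue library was above the highest IEL library by a wide margin, and the difference was 60.1-fold lower (log2 -5.91, SE 0.49, edgeR adjusted p = 0.00015). MHC class II genes, which present antigen to CD4 T cells, were lower in 7 of 8 cases (median -3.10). H2-Aa, an alpha chain of class II, was at 488, 1269, 975 and 1022 CPM in tissue and 21.6, 76.0, 14.5 and 54.1 CPM in IEL preparations. Both preparations were wide in range but did not overlap, and the difference was 22.9-fold lower (log2 -4.52, SE 0.61, edgeR adjusted p = 0.00078). Enterocytes of the villus also make class II proteins, so this gene does not mark one cell type.

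Mast cell genes took the other direction: 6 of 9 members were tested and 6 were higher, with a median log2 of 2.41, and their summed level was 21.1 to 27.9 CPM in tissue and 90.7 to 186 CPM in IEL preparations. Mcpt1, the protease of mucosal mast cells, was at 5.39, 0.996, 4.37 and 6.35 CPM in tissue and 36.1, 42.2, 93.9 and 36.7 CPM in IEL preparations. KO IEL replicate 1 was highest, and the difference was 12.2-fold higher (log2 3.62, SE 0.48, edgeR adjusted p = 0.000775). Mcpt2, a second mucosal mast cell protease, was 13.7-fold higher (log2 3.78, SE 0.51, edgeR adjusted p = 0.00081). The general mast cell receptor genes Fcer1a and Ms4a2 were too low to be tested. B cell genes gave 0 higher and 0 lower of 11. Without WT tissue replicate 1, 7 B cell genes were higher in IEL preparations. Of plasma cell genes 5 of 10 were lower and 1 higher. Sdc1, syndecan 1, was 3.00-fold lower (log2 -1.58, SE 0.19, edgeR adjusted p = 0.000535), and epithelium makes it too. Without KO tissue replicate 2 only 2 plasma cell genes were lower, and 3 without WT tissue replicate 2, as without WT IEL replicate 1 or KO IEL replicate 2.

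Markers of epithelium remained high in IEL preparations and were lower than in tissue. Of 14 general epithelial genes 11 were lower, 8 with library totals alone, and 0 higher (median -0.90). Their summed level was 27272 to 37306 CPM in tissue and 13077 to 15114 CPM in IEL preparations. Epcam, the epithelial adhesion molecule (gene ID 17075, GRCm38.p6 chromosome 17, 87635979 to 87651127), was at 2495, 3666, 3589 and 4449.5 CPM in tissue and 1051, 902, 1041 and 1018 CPM in IEL preparations. Groups did not overlap, and the difference was 3.51-fold lower (log2 -1.81, SE 0.18, edgeR adjusted p = 0.000278). Krt20, a keratin of mature villus cells, was at 2691, 4337, 4757 and 6552 CPM in tissue and 563, 687, 685 and 856 CPM in IEL preparations, and 6.42-fold lower (log2 -2.68, SE 0.23, edgeR adjusted p = 0.000162). Cldn7, a claudin of epithelial cell contacts, was 3.07-fold lower (log2 -1.62, SE 0.16, edgeR adjusted p = 0.000273). The preparations labelled IEL thus held RNA of T cells and of epithelium.

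**Figure D3:**
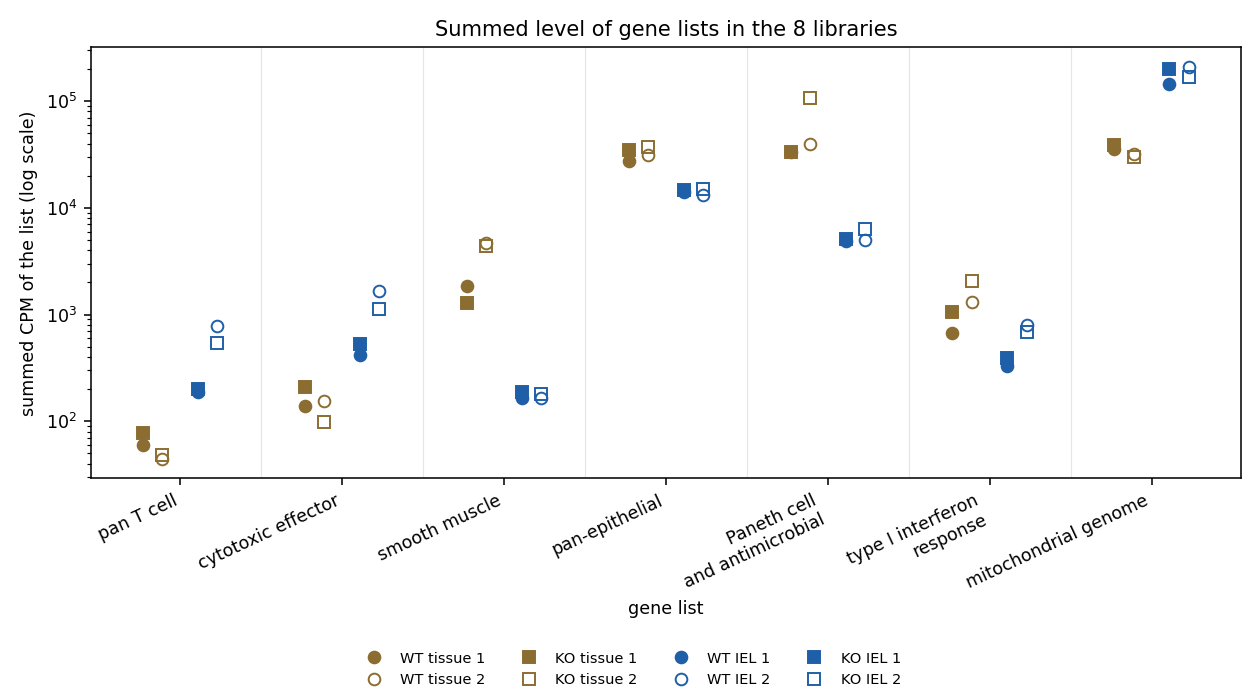
Summed CPM of 7 gene lists in each of the 8 libraries, on a log axis, with tissue in brown, IEL preparations in blue, circles for WT, squares for KO, filled symbols for replicate 1 and open symbols for replicate 2. General T cell and cytotoxic genes and the genes of the mitochondrial genome are higher in every IEL library than in every tissue library, and smooth muscle, epithelial and antimicrobial genes are lower.

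Brush border genes were lower in IEL preparations with few exceptions. Of 12 genes of the microvillus cytoskeleton 11 were lower and 0 higher (median -1.30). Espn, the actin bundler espin, was at 220.3 to 435 CPM in tissue and 68.1 to 134.9 CPM in IEL preparations, and 3.35-fold lower (log2 -1.74, SE 0.21, edgeR adjusted p = 0.000557). Of 16 peptidase and amino acid transporter genes 14 were lower and 0 higher (median -1.73). Mep1a, a subunit of the membrane protease meprin, was at 951, 1584, 1406 and 1543 CPM in tissue and 42.2, 74.8, 48.1 and 73.4 CPM in IEL preparations. No library came near those of the other preparation, and the difference was 22.9-fold lower (log2 -4.52, SE 0.28, edgeR adjusted p = 6.74e-05). Naaladl1, an ileal peptidase of the brush border, was 7.87-fold lower (log2 -2.98, SE 0.24, edgeR adjusted p = 0.000137), and Anpep, aminopeptidase N, was 3.96-fold lower (log2 -1.99, SE 0.28, edgeR adjusted p = 0.000932). Mep1a is plotted below with genes of the distal small intestine. The labels do not state the stretch of intestine used, so region and preparation cannot be told apart in these differences.

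Genes of sugar handling did not follow the peptidases, with 6 of 11 higher and 1 lower, or 2 lower without WT tissue replicate 1 (median 1.28). Khk, the kinase that commits fructose to breakdown, was at 156, 115, 245 and 88.9 CPM in tissue and 367, 449, 454 and 469 CPM in IEL preparations. It was 2.89-fold higher (log2 1.53, SE 0.29, edgeR adjusted p = 0.00341). Treh, the brush border trehalase, was 2.43-fold higher (log2 1.28, SE 0.26, edgeR adjusted p = 0.00473). The member that was lower was Slc5a1, the sodium glucose cotransporter, at 2424 to 4204 CPM in tissue and 974 to 2568 CPM in IEL preparations (log2 -1.08, edgeR adjusted p = 0.006). Fat absorption genes went both ways, with 5 higher and 8 lower of 17. Gpat3, which starts triglyceride synthesis, was 3.14-fold lower (log2 -1.65, SE 0.15, edgeR adjusted p = 0.000174), whereas Apoc3, an apolipoprotein of chylomicrons, was 4.18-fold higher (log2 2.06, SE 0.35, edgeR adjusted p = 0.00223). Cd36, a fatty acid receptor, was at 6.09 to 24.7 CPM in tissue and 33.5 to 59.6 CPM in IEL preparations, and 3.56-fold higher (log2 1.83, SE 0.44, edgeR adjusted p = 0.0095).

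The preparations also differed in genes that mark position along the intestine. Of 9 genes of bile acid and cobalamin uptake, which the ileum carries out, 8 were lower in IEL preparations (median -3.16). Fabp6, the ileal bile acid binding protein (gene ID 16204, GRCm38.p6 chromosome 11, 43596040 to 43601562), was at 4762, 3465, 5359.8 and 4478 CPM in tissue and 193, 201, 75.8 and 191 CPM in IEL preparations. The highest IEL library was far below the lowest tissue library, and the difference was 27.7-fold lower (log2 -4.79, SE 0.36, edgeR adjusted p = 0.000115). Slc51a, a subunit of the transporter that passes bile acids to blood, was at 1208, 1264, 1547 and 1350.2 CPM in tissue and 115, 140, 138 and 214 CPM in IEL preparations. It was 8.93-fold lower (log2 -3.16, SE 0.19, edgeR adjusted p = 5.56e-05). Nr1h4, the bile acid receptor FXR, was 4.60-fold lower (log2 -2.20, SE 0.20, edgeR adjusted p = 0.000199). The member that was higher was Nr0b2, the repressor SHP that FXR induces, at 0 to 0.414 CPM in tissue and 3.24 to 8.74 CPM in IEL preparations (log2 5.15, edgeR adjusted p = 0.000787), and log2 was 6.30 with WT tissue replicate 1 left out. Hormones of distal endocrine cells moved with the ileal genes: Nts, neurotensin, was at 49.7 to 81.0 CPM in tissue and 0.692 to 3.16 CPM in IEL preparations (log2 -5.40, edgeR adjusted p = 0.000115), and Pyy, peptide YY, at 23.0 to 40.4 CPM in tissue and 0.658 to 2.19 CPM in IEL preparations (log2 -4.61, edgeR adjusted p = 0.000115).

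Of 9 proximal genes 5 were higher and 3 lower, and 3 were higher without WT IEL replicate 1 or KO IEL replicate 2. Onecut2, a transcription factor of the duodenum (gene ID 225631), was at 0.249, 0.230, 0.508 and 0.438 CPM in tissue and 61.3, 66.2, 65.5 and 43.6 CPM in IEL preparations. All 4 tissue libraries were near 0 and the IEL libraries were alike, and the difference was 167-fold higher (log2 7.38, SE 0.28, edgeR adjusted p = 1.03e-05). Pdx1, the duodenal and pancreatic homeobox factor, was at 0.0829, 0.0766, 0.305 and 0.110 CPM in tissue and 5.99, 9.77, 5.57 and 5.36 CPM in IEL preparations. It was 44.6-fold higher (log2 5.48, SE 0.47, edgeR adjusted p = 0.00017), and log2 was 6.15 with KO tissue replicate 1 left out. Slc46a1, the proton-coupled folate transporter of the duodenum and upper jejunum, was 5.43-fold higher (log2 2.44, SE 0.23, edgeR adjusted p = 0.000211), and Cck, the hormone of proximal endocrine cells, was 4.56-fold higher (log2 2.19, SE 0.35, edgeR adjusted p = 0.00169). Lct, lactase, was at 78.0, 0.307, 197 and 0.329 CPM in tissue and 1019, 1712, 1434 and 1713 CPM in IEL preparations. By ratio, the tissue libraries numbered 1 and 2 differed from each other more than those numbered 1 did from IEL preparations. Lct passed (log2 difference 4.56, SE 1.61, edgeR adjusted p = 0.0442), but log2 was 5.43 without WT tissue replicate 1 (edgeR adjusted p = 0.066), 4.06 without WT tissue replicate 2 (edgeR adjusted p = 0.0507), 6.48 with KO tissue replicate 1 left out, 4.60 without WT IEL replicate 1 (edgeR adjusted p = 0.0726), 4.29 without WT IEL replicate 2 (edgeR adjusted p = 0.0787), 4.74 without KO IEL replicate 1 (edgeR adjusted p = 0.0759) and 4.66 without KO IEL replicate 2 (edgeR adjusted p = 0.0794). Gata4, the transcription factor absent from the ileum, was at 22.0, 1.38, 45.7 and 1.53 CPM in tissue and 137 to 163 CPM in the 4 IEL preparations. Its tissue libraries split in the same way as for Lct (log2 difference 3.19, SE 0.97, edgeR adjusted p = 0.0259), and log2 was 4.50 with KO tissue replicate 1 left out, 3.07 without WT IEL replicate 1 (edgeR adjusted p = 0.0522) and 3.27 without KO IEL replicate 2 (edgeR adjusted p = 0.0534). Members that were lower included Slc40a1, the iron exporter ferroportin, at 96.1 to 195 CPM in tissue and 24.4 to 38.4 CPM in IEL preparations (log2 -1.95, edgeR adjusted p = 0.000774). The other members that were lower were Cybrd1 and the hormone gene Sct, and the hormone gene Gip did not pass. Cck is not a member of this list. Which stretch of intestine went into each preparation is not stated in the labels, so region and preparation cannot be told apart for these genes.

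**Figure D4:**
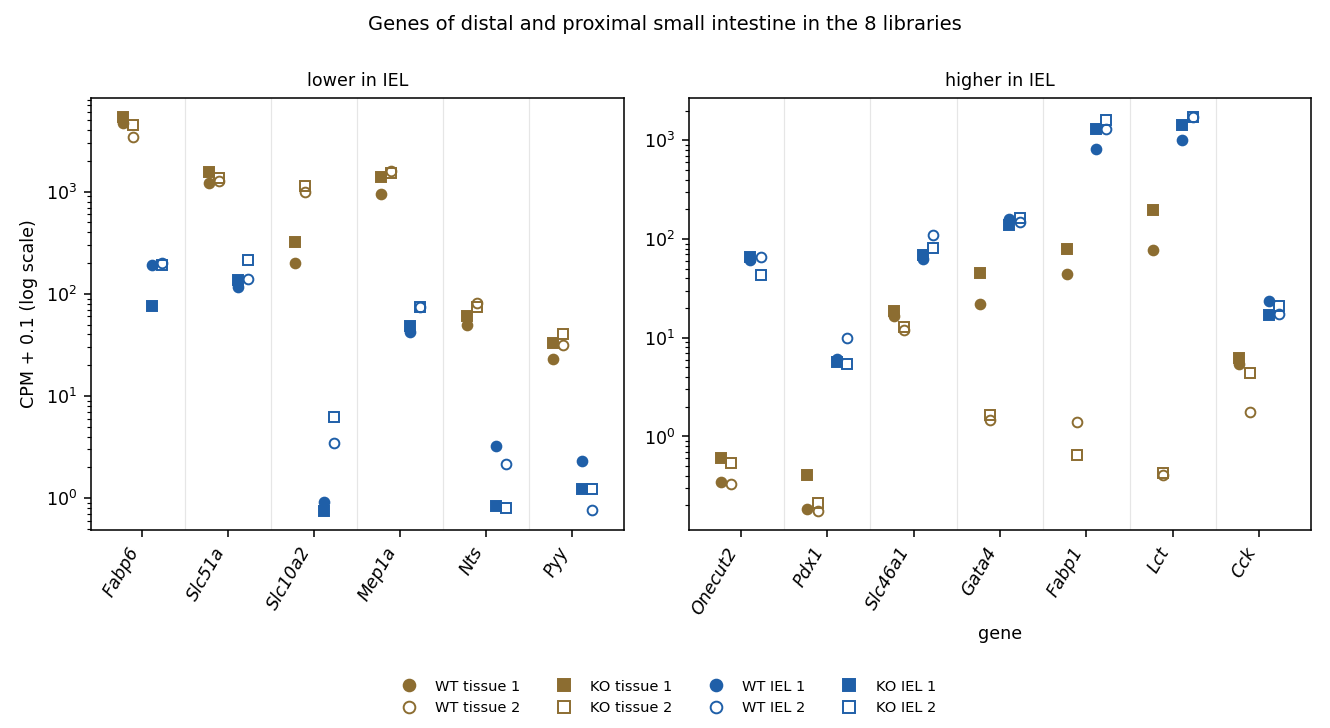
CPM + 0.1 on a log axis for genes of distal (left) and proximal (right) small intestine in each library, with tissue in brown, IEL preparations in blue, circles for WT, squares for KO, filled symbols for replicate 1 and open symbols for replicate 2. Fabp6, Slc51a, Mep1a, Nts and Pyy are lower in all 4 IEL libraries, Onecut2, Pdx1 and Slc46a1 higher, and Gata4, Fabp1 and Lct split the tissue libraries by replicate number.

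Enzymes that handle foreign compounds and retinoids were higher in IEL preparations, 13 of 17, with 1 lower and a median log2 of 2.27. Adh1, an alcohol and retinol dehydrogenase, was at 25.8, 31.2, 49.0 and 36.5 CPM in tissue and 431, 458, 575 and 331 CPM in IEL preparations. It was 12.8-fold higher (log2 3.68, SE 0.24, edgeR adjusted p = 6.89e-05). Gstm1, a glutathione transferase, was at 22.4, 28.7, 28.0 and 24.4 CPM in tissue and 118, 103, 134 and 149 CPM in IEL preparations. Values within a preparation were close, and the difference was 4.82-fold higher (log2 2.27, SE 0.14, edgeR adjusted p = 6.2e-05). Cyp1a1, the cytochrome P450 induced through the aryl hydrocarbon receptor, was at 0.414, 0.613, 1.01 and 0.329 CPM in tissue and 16.1, 27.1, 25.2 and 16.8 CPM in IEL preparations, and 35.4-fold higher (log2 5.14, SE 0.37, edgeR adjusted p = 0.000107). Ahr, that receptor, was 3.07-fold higher (log2 1.62, SE 0.13, edgeR adjusted p = 0.000128). The enzyme that was lower was Cyp3a13, at 292 to 730 CPM in tissue and 224 to 333 CPM in IEL preparations (log2 -0.96, edgeR adjusted p = 0.00975). Of 16 PPAR-alpha and fatty acid oxidation genes 6 were higher, a share somewhat above the background, and 4 lower, a share near it. The lower count was 2 without WT tissue replicate 2, WT IEL replicate 1, KO IEL replicate 1 or KO IEL replicate 2. Pdk4, a kinase that inhibits pyruvate dehydrogenase, was 16.5-fold higher (log2 4.05, SE 0.53, edgeR adjusted p = 0.000724). Slc25a20, the carnitine carrier, was 2.06-fold lower (log2 -1.04, SE 0.14, edgeR adjusted p = 0.000895).

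Genes through which enterocytes hold or instruct intraepithelial lymphocytes did not move as a group. Of 14 such genes 5 were lower and 1 higher, the latter count ranging from 0 to 3 when 1 library was left out (highest without WT IEL replicate 1 and 0 without WT tissue replicate 1, WT IEL replicate 2 or KO IEL replicate 2). Btnl6, a butyrophilin-like protein that shapes gut gamma delta T cells, was at 315, 488, 459.9 and 507 CPM in tissue and 109, 156, 146 and 181 CPM in IEL preparations. It was 2.99-fold lower (log2 -1.58, SE 0.19, edgeR adjusted p = 0.000505). Cxadr, an adhesion molecule of epithelial contacts, was 2.77-fold lower (log2 -1.47, SE 0.27, edgeR adjusted p = 0.00278), and Il7, a cytokine that sustains lymphocytes, was 3.40-fold lower (log2 -1.76, SE 0.33, edgeR adjusted p = 0.00332). Il15, the cytokine that activates intraepithelial lymphocytes, was at 5.80, 11.04, 11.9 and 8.21 CPM in tissue and 8.26, 12.7, 10.3 and 10.8 CPM in IEL preparations. Its libraries overlapped and it did not pass (log2 0.19, edgeR adjusted p = 0.561). Il15ra, the chain that presents IL-15 to T cells, was at 7.12 to 8.05 CPM in tissue and 9.65 to 14.01 CPM in IEL preparations (log2 0.59, edgeR adjusted p = 0.0239), and log2 was 0.54 without WT tissue replicate 1 (edgeR adjusted p = 0.0535), 0.56 without KO tissue replicate 1 (edgeR adjusted p = 0.0548), 0.56 without KO tissue replicate 2 (edgeR adjusted p = 0.0539), 0.56 without WT IEL replicate 2 (edgeR adjusted p = 0.0551) and 0.45 without KO IEL replicate 2 (edgeR adjusted p = 0.0839). Of 14 tight junction genes 8 were lower. F11r, the junction adhesion molecule JAM-A, was 2.66-fold lower (log2 -1.41, SE 0.14, edgeR adjusted p = 0.000291), and Cldn2, a claudin that lets water and cations pass in crypts, was 3.47-fold lower (log2 -1.79, SE 0.23, edgeR adjusted p = 0.000653).

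Antimicrobial genes of Paneth cells and enterocytes were lower, 10 of 15 tested, with a median log2 of -1.37. Reg3b, a lectin that binds bacteria, was at 14672, 22993, 15119 and 61174 CPM in tissue and 1674, 1031, 829 and 1708 CPM in IEL preparations. KO tissue replicate 2 stood far above the other tissue libraries. The difference was 20.5-fold lower (log2 -4.36, SE 0.56, edgeR adjusted p = 0.000672), and log2 was -3.71 with KO tissue replicate 2 left out. Mmp7, the protease that activates defensins in Paneth cells, was at 144.3, 134, 113 and 124.2 CPM in tissue and 32.9, 40.7, 44.0 and 45.0 CPM in IEL preparations, and 3.18-fold lower (log2 -1.67, SE 0.14, edgeR adjusted p = 0.00017). Defa22, an alpha defensin, was 10.6-fold lower (log2 -3.40, SE 0.23, edgeR adjusted p = 8.01e-05), although alpha defensins are near-identical copies between which reads could be split. Muc2, the mucin of goblet cells, was at 1379 to 2124 CPM in tissue and 598 to 1352 CPM in IEL preparations (log2 -0.89, edgeR adjusted p = 0.0199), and 5 of 12 goblet cell genes were lower, which fell to 3 lower without WT IEL replicate 1 or KO IEL replicate 1.

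Most villus tip genes were lower, while crypt genes gave a mixed count. Of 7 villus tip genes 5 were lower and 0 higher (median -1.66). Ada, the adenosine deaminase of upper villus cells, was at 125, 544, 352 and 1064 CPM in tissue and 29.8, 27.1, 15.2 and 24.3 CPM in IEL preparations. The tissue libraries numbered 2 were highest, and the difference was 20.5-fold lower (log2 -4.36, SE 0.64, edgeR adjusted p = 0.00113). Klf4, a factor of cells that have left the cycle, was 2.92-fold lower (log2 -1.55, SE 0.17, edgeR adjusted p = 0.000382). Of 12 crypt stem cell genes 5 were higher and 1, Axin2, lower. Olfm4, which marks the crypt base, was at 142, 85.9, 77.0 and 36.9 CPM in tissue and 478, 261, 391 and 236 CPM in IEL preparations, and 4.22-fold higher (log2 2.08, SE 0.35, edgeR adjusted p = 0.00214). Lgr5, the receptor that defines these stem cells, was at 4.06 to 8.05 CPM in tissue and 3.11 to 7.89 CPM in IEL preparations and did not pass (log2 0.14, edgeR adjusted p = 0.752). Axin2, a target of Wnt signals, was at 48.8 to 88.1 CPM in tissue and 41.1 to 63.8 CPM in IEL preparations (log2 -0.58, edgeR adjusted p = 0.0474), and log2 was -0.55 without WT tissue replicate 2 (edgeR adjusted p = 0.101), -0.40 without KO tissue replicate 1 (edgeR adjusted p = 0.114), -0.48 without WT IEL replicate 2 (edgeR adjusted p = 0.105), -0.54 without KO IEL replicate 1 (edgeR adjusted p = 0.125) and -0.58 without KO IEL replicate 2 (edgeR adjusted p = 0.0984). Cell cycle genes gave 7 higher and 0 lower of 17, but 4 without WT tissue replicate 2, KO tissue replicate 1, KO tissue replicate 2, WT IEL replicate 1 or KO IEL replicate 1. Pcna, the replication clamp, was 1.69-fold higher (log2 0.76, SE 0.16, edgeR adjusted p = 0.00569). Dividing T cells and dividing crypt cells both make it.

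Rarer epithelial cells and other immune lineages gave mixed counts. Endocrine genes gave 4 higher and 5 lower of 12, and the higher count was 2 without WT IEL replicate 1 or KO IEL replicate 1. Sst, somatostatin, was at 14.9 to 24.0 CPM in tissue and 2.59 to 5.75 CPM in IEL preparations (log2 -2.17, edgeR adjusted p = 0.000603), and Gcg, the gene of proglucagon, at 32.4 to 47.5 CPM in tissue and 14.2 to 32.1 CPM in IEL preparations (log2 -1.12, edgeR adjusted p = 0.0045). Of 11 tuft cell genes 1 was lower, Ptgs1, which makes prostaglandins, at 13.6 to 14.8 CPM in tissue and 1.38 to 4.32 CPM in IEL preparations (log2 -2.39, edgeR adjusted p = 0.000764), and 4 were lower without KO tissue replicate 2. Innate lymphoid genes gave 4 higher and 3 lower of 7. Il1rl1, the receptor of IL-33, was at 13.6, 5.75, 7.72 and 10.3 CPM in tissue and 0.567, 0.282, 0.742 and 0.605 CPM in IEL preparations. It was 16.8-fold lower (log2 -4.07, SE 0.40, edgeR adjusted p = 0.000262). Itgax, the integrin CD11c of dendritic cells and of some intraepithelial T cells, was 3.46-fold higher (log2 1.79, SE 0.30, edgeR adjusted p = 0.00195). Of 15 genes of the NF-kB response 3 were higher and 2 lower, and 5 were higher without KO tissue replicate 2. Relb, a subunit of NF-kB, was 2.68-fold lower (log2 -1.42, SE 0.14, edgeR adjusted p = 0.000291), while Nfkbid, a nuclear inhibitor of that family, was 6.92-fold higher (log2 2.79, SE 0.40, edgeR adjusted p = 0.00102). Ribosomal protein genes gave 1 higher and 0 lower of 20 (median 0.19). The member that was higher was Rpl5 (log2 0.45, edgeR adjusted p = 0.0441). The higher count was 2 without WT IEL replicate 2 and 0 when any other library was left out. In those 7 fits the log2 difference of Rpl5 lay between 0.34 and 0.51, with an edgeR adjusted p of 0.0537 to 0.134.

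Interferon genes were lower in part, and their counts rested on which libraries were used. Type I interferons induce antiviral genes through the interferon-stimulated response element, and interferon gamma, a product of T and NK cells, induces an overlapping set. Of 21 type I interferon genes 8 were lower and 1 higher (median -1.11). The lower count was 3 when WT tissue replicate 2, WT IEL replicate 1, KO IEL replicate 1 or KO IEL replicate 2 was left out. It was 4 without KO tissue replicate 2 and 15 without WT IEL replicate 2. Zbp1, a sensor of nucleic acids, was at 54.6, 117, 75.8 and 158 CPM in tissue and 7.53, 24.3, 7.33 and 30.7 CPM in IEL preparations. Groups did not overlap, and the difference was 5.76-fold lower (log2 -2.53, SE 0.55, edgeR adjusted p = 0.00611). Ifih1, the RNA sensor MDA5, was 2.28-fold lower (log2 -1.19, SE 0.28, edgeR adjusted p = 0.00842). Of 19 interferon gamma genes 12 were lower and 2 higher, or 1 higher without WT tissue replicate 1, KO tissue replicate 1, KO tissue replicate 2, WT IEL replicate 2 or KO IEL replicate 2 (median -1.16). Irgm1, a GTPase of cell-autonomous defence, was at 64.8 to 104 CPM in tissue and 22.6 to 37.1 CPM in IEL preparations (log2 -1.51, edgeR adjusted p = 0.000938), while the chemokine gene Cxcl11 was higher at 0.438 to 1.01 CPM in tissue and 1.95 to 5.53 CPM in IEL preparations (log2 2.37, edgeR adjusted p = 0.00504).

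The core of the response element, GAAANNGAAA or TTTCNNTTTC on the other strand, was searched in the 250 bases before each RefSeq start of a gene. It stood in 7 of 15 type I interferon genes with a promoter sequence (46.7%) and in 936 of 27025 genes (3.46%). Of the 6 of these 15 genes that were lower, 2 held it. Any link between the motif and the difference was not tested. Both members that were lower and held a match are shown to place the motif, with the matches in capitals, 5′ to 3′ on the gene's strand. The Ifit1 window is GRCm38.p6 chr19:34640779-34640838 on the plus strand and the Oas1a window chr5:120907526-120907564 on the minus strand. Overlapping matches appear as one run.
Ifit1: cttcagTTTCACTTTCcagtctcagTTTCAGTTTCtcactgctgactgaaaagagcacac
Oas1a: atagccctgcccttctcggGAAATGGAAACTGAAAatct
Ifit1, which binds foreign RNA, was at 20.6, 70.0, 28.8 and 97.9 CPM in tissue and 6.07, 25.3, 5.85 and 14.1 CPM in IEL preparations. Its difference was 4.26-fold lower (log2 -2.09, SE 0.65, edgeR adjusted p = 0.0282), and log2 was -1.87 without WT tissue replicate 2 (edgeR adjusted p = 0.103), -1.54 without KO tissue replicate 2 (edgeR adjusted p = 0.0659), -1.91 without WT IEL replicate 1 (edgeR adjusted p = 0.0645), -2.78 with WT IEL replicate 2 left out, -1.77 without KO IEL replicate 1 (edgeR adjusted p = 0.082) and -2.21 without KO IEL replicate 2 (edgeR adjusted p = 0.0692). Oas1a, which makes the messenger that activates RNase L, was 2.94-fold lower (log2 -1.55, SE 0.50, edgeR adjusted p = 0.031), and log2 was -1.68 without WT tissue replicate 2 (edgeR adjusted p = 0.0558), -1.18 without KO tissue replicate 2 (edgeR adjusted p = 0.0648), -1.39 without WT IEL replicate 1 (edgeR adjusted p = 0.0658), -2.17 with WT IEL replicate 2 left out, -1.21 without KO IEL replicate 1 (edgeR adjusted p = 0.0798) and -1.67 without KO IEL replicate 2 (edgeR adjusted p = 0.0706). A match describes the letters of the window and is not a measured binding site.

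Clock genes differed between the preparations. In this feedback loop Clock and Arntl (BMAL1) activate genes through E-boxes, and the Per and Cry proteins they induce block them. Of 15 tested clock genes 1 was higher and 8 lower (2 higher without KO IEL replicate 1), with a median log2 of -1.61. Arntl, the gene that was higher, was at 9.20, 11.3, 7.51 and 8.76 CPM in tissue and 47.7, 37.7, 41.0 and 35.6 CPM in IEL preparations. No library overlapped, and the difference was 4.42-fold higher (log2 2.15, SE 0.15, edgeR adjusted p = 8.95e-05). Dbp, an output gene of the loop, was at 31.9, 53.4, 50.0 and 46.0 CPM in tissue and 1.86, 3.85, 2.69 and 5.01 CPM in IEL preparations. It was 13.6-fold lower (log2 -3.77, SE 0.30, edgeR adjusted p = 0.00014). Per2, a repressor of the loop, was at 50.9, 49.8, 47.3 and 40.5 CPM in tissue and 12.7, 15.1, 12.3 and 16.2 CPM in IEL preparations, and 3.34-fold lower (log2 -1.74, SE 0.14, edgeR adjusted p = 0.00014). Per3 was 4.61-fold lower (log2 -2.21, SE 0.27, edgeR adjusted p = 0.000586) and Nr1d2, which encodes REV-ERB beta, was 3.06-fold lower (log2 -1.61, SE 0.23, edgeR adjusted p = 0.000945). Clock itself was at 48.7 to 86.4 CPM in tissue and 70.3 to 77.3 CPM in IEL preparations (log2 0.12, edgeR adjusted p = 0.623), and Per1, which stress also induces, was at 23.1 to 38.1 CPM in tissue and 32.0 to 74.6 CPM in IEL preparations (log2 0.60, edgeR adjusted p = 0.0957). Neither passed. The labels give no time of day for any sample, so time of collection and preparation cannot be told apart.

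The E-box CACGTG, which reads the same on both strands, stood in 5 of 14 clock genes with a promoter sequence (35.7%) and in 1854 of 27025 genes (6.86%) over the same 250 bases. Of the 7 of these 14 genes that were lower, 3 held the E-box. Windows of the 3 members that were lower and held it are given with the E-box in capitals: Tef at GRCm38.p6 chr15:81802521-81802576 on the plus strand, Cry1 at chr10:85185084-85185139 on the minus strand and Ciart at chr3:95882242-95882297 on the minus strand.
Tef: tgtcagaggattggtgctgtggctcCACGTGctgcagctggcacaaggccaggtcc
Cry1: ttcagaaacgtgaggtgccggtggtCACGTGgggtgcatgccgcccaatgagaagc
Ciart: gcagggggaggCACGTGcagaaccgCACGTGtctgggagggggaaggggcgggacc
Tef, a transcription factor of the same family as Dbp, was at 103, 147.2, 139.2 and 137 CPM in tissue and 13.03, 22.9, 18.1 and 21.7 CPM in IEL preparations, and 6.95-fold lower (log2 -2.80, SE 0.20, edgeR adjusted p = 0.000112). Cry1, a repressor, was at 25.9, 27.2, 30.1 and 29.9 CPM in tissue and 8.50, 10.6, 6.31 and 9.94 CPM in IEL preparations, and 3.20-fold lower (log2 -1.68, SE 0.18, edgeR adjusted p = 0.000372). Ciart, another repressor of the loop, was at 4.14, 5.83, 7.11 and 4.82 CPM in tissue and 0.567, 1.60, 1.02 and 1.12 CPM in IEL preparations, and 5.05-fold lower (log2 -2.34, SE 0.36, edgeR adjusted p = 0.00138). All 3 were lower in every IEL library than in any tissue library.

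Immediate early genes, which cells switch on within minutes of a stimulus, were higher in IEL preparations. Of 15 such genes 13 were higher and 0 lower, with a median log2 of 2.43, and the count was the same without any 1 library. Fosb, a partner in the AP-1 factor (gene ID 14282, GRCm38.p6 chromosome 7, 19302696 to 19310118), was at 5.39, 1.69, 3.76 and 3.29 CPM in tissue and 539.7, 628, 609 and 507 CPM in IEL preparations. All IEL libraries were at 507 CPM or more and all tissue libraries at 5.39 or less. The difference was 162-fold higher (log2 7.34, SE 0.36, edgeR adjusted p = 3.87e-05). Ier2, a nuclear regulator, was at 51.6, 49.1, 50.0 and 47.4 CPM in tissue and 452, 452, 391 and 340.5 CPM in IEL preparations. Values hardly varied within tissue, and the difference was 8.21-fold higher (log2 3.04, SE 0.12, edgeR adjusted p = 1.48e-05). Nr4a1, a nuclear receptor that T cell receptor signals also induce, was at 2.07, 1.84, 1.73 and 2.63 CPM in tissue and 110.3, 150.3, 61.2 and 97.1 CPM in IEL preparations, and 49.8-fold higher (log2 5.64, SE 0.29, edgeR adjusted p = 4.25e-05). Dusp1, a phosphatase that ends MAP kinase signalling, was at 8.20, 8.51, 10.6 and 19.8 CPM in tissue and 162, 265, 189.7 and 198 CPM in IEL preparations, and 18-fold higher (log2 4.17, SE 0.32, edgeR adjusted p = 0.000115).

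Cyclic AMP and growth signals reach many of these genes through the response element that CREB binds. Its half-site, TGACG or CGTCA on the other strand, stood in 8 of 13 of them with a promoter sequence (61.5%) and in 5347 of 27025 genes (19.8%). Of the 11 of these 13 genes that were higher, 8 held the half-site. Windows of the 3 genes above that held it follow, with the half-site in capitals: Fosb at GRCm38.p6 chr7:19310076-19310130 on the minus strand, Nr4a1 at chr15:101266781-101266835 on the plus strand and Dusp1 at chr17:26508583-26508637 on the minus strand. The Fosb match lies inside the gene span given above, 60 bases before a RefSeq start within that span. In Dusp1 both half-sites meet to form the full palindrome.
Fosb: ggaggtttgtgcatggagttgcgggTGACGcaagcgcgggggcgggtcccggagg
Nr4a1: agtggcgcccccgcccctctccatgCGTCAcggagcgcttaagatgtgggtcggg
Dusp1: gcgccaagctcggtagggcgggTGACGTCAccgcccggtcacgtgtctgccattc
Each gene is one of the 4 with the smallest p in the list.

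Heat shock genes moved with them, 10 of 11 higher (median 0.95), though 6 without WT tissue replicate 2 and 5 without WT IEL replicate 1. Hsp90aa1, an inducible chaperone, was at 168, 212, 109 and 186 CPM in tissue and 386, 456, 473 and 439.8 CPM in IEL preparations, and 2.62-fold higher (log2 1.39, SE 0.20, edgeR adjusted p = 0.00115). The member that was lower was Hspb1, a small chaperone abundant in muscle, at 5.68 to 24.6 CPM in tissue and 0.405 to 1.38 CPM in IEL preparations (log2 -4.37, edgeR adjusted p = 0.00106). Of 15 genes of the unfolded protein response 2 were higher and 6 lower. Ddit3, the stress factor CHOP, was at 11.1, 13.6, 16.8 and 12.9 CPM in tissue and 40.0, 57.1, 38.2 and 54.7 CPM in IEL preparations, and 3.50-fold higher (log2 1.81, SE 0.19, edgeR adjusted p = 0.000341). Glycolysis genes gave 0 higher and 8 lower of 15, and Aldoa, an aldolase, was 2.38-fold lower (log2 -1.25, SE 0.14, edgeR adjusted p = 0.000385).

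**Figure D5:**
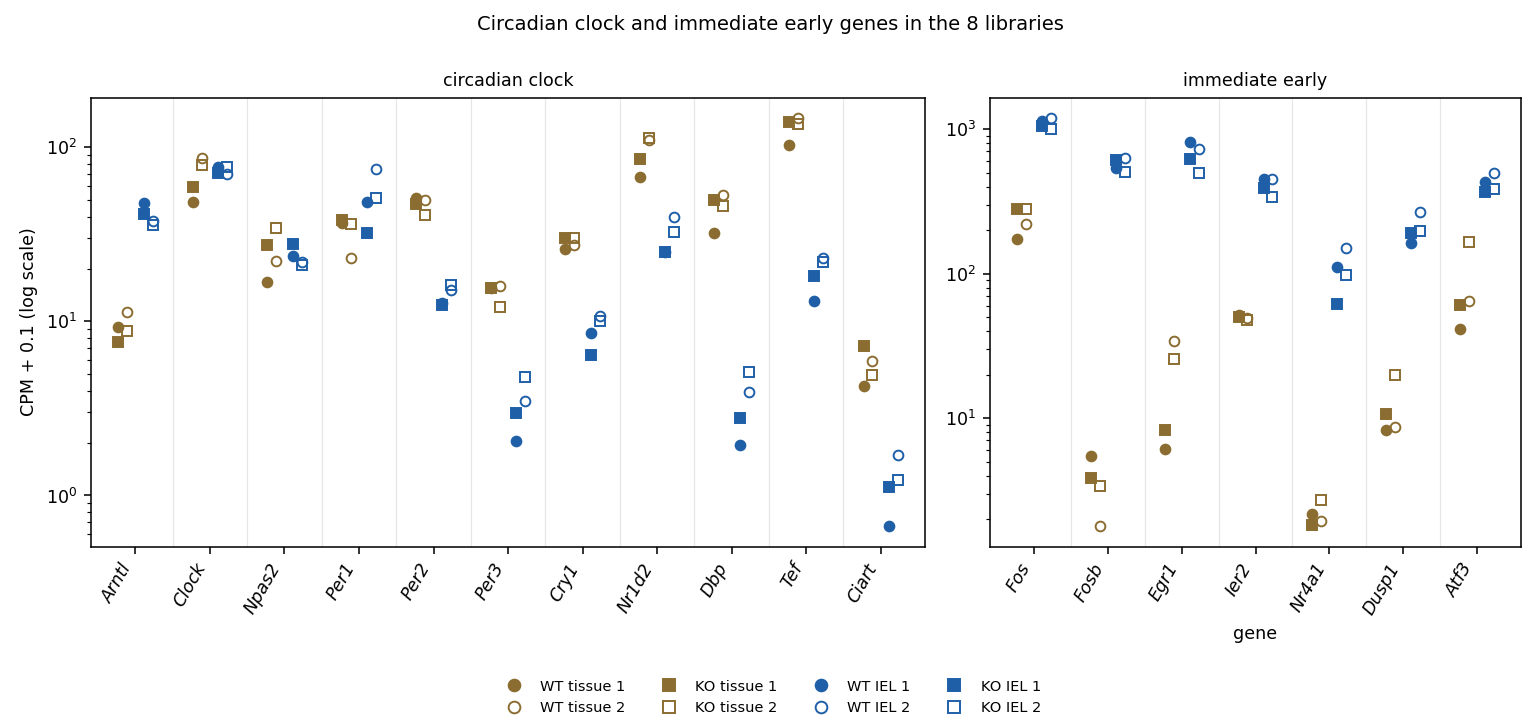
CPM + 0.1 on a log axis for circadian clock genes (left) and immediate early genes (right) in each library, with tissue in brown, IEL preparations in blue, circles for WT, squares for KO, filled symbols for replicate 1 and open symbols for replicate 2. Arntl is higher and Per2, Per3, Cry1, Nr1d2, Dbp, Tef and Ciart are lower in all 4 IEL libraries, and every immediate early gene shown is higher in all 4.

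Transcripts of the mitochondrial genome were higher in IEL preparations, and all 9 genes measured passed (median 2.45). Together they had 29802 to 38439.5 CPM in tissue and 144122 to 208937 CPM in IEL preparations. COX3, a subunit of cytochrome oxidase, was at 113, 116, 122.7 and 129.8 CPM in tissue and 566, 703, 928 and 771 CPM in IEL preparations, and 6.10-fold higher (log2 2.61, SE 0.15, edgeR adjusted p = 4.69e-05). Nuclear genes of oxidative phosphorylation did not rise: 0 of 17 were higher and 3 lower (median 0.02), with 0 or 1 lower without KO tissue replicate 1 or any 1 IEL library and 1 higher without WT tissue replicate 1. Mitochondrial reads are a common sign of RNA quality and cell handling, and their part in the other results was not tested. With those genes left out of the counts, 3309 genes were higher and 3186 lower.

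List counts also moved when both libraries of a number were left out of a preparation. The counts given here are those that moved by over 1.5 times and were at 5 or more before or after. Without both tissue libraries numbered 1, which left 24.3% of genes called higher and 28.7% lower, B cell genes higher went from 0 to 7, nuclear oxidative phosphorylation genes higher from 0 to 6 and goblet cell genes lower from 5 to 3. Without both tissue libraries numbered 2 (18.4% and 20.2%), type I interferon genes lower went from 8 to 2, interferon gamma genes lower from 12 to 7, plasma cell genes lower from 5 to 3, blood endothelial genes lower from 7 to 4 and tuft cell genes lower from 1 to 7. In the same fit heat shock genes higher went from 10 to 5, crypt stem cell genes higher from 5 to 3 and cell cycle genes higher from 7 to 2. The leaving out of both IEL libraries numbered 1 brought fewer calls over all genes (13.8% and 14.3%). Among genes called lower, type I interferon went from 8 to 1, interferon gamma from 12 to 5, fat absorption from 8 to 2, goblet cell from 5 to 1, plasma cell from 5 to 1 and blood endothelium from 7 to 4. General epithelium and the microvillus cytoskeleton each went from 11 to 7, ileal uptake from 8 to 5, glycolysis from 8 to 5, fat and mesothelium from 6 to 3 and epithelial ligands from 5 to 3. Among genes called higher, cell cycle went from 7 to 0, crypt stem cell from 5 to 1, heat shock from 10 to 6, fat absorption from 5 to 3 and proximal intestine from 5 to 3. Without both IEL libraries numbered 2 (14.7% and 17.6%), the type I interferon count went the other way, from 8 to 13 lower. General epithelium lower went from 11 to 7, plasma cell from 5 to 2, goblet cell from 5 to 3, endocrine from 5 to 3, tight junction from 8 to 5, epithelial ligands from 5 to 3 and the unfolded protein response from 6 to 3. NK receptor genes higher went from 6 to 2, heat shock from 10 to 5, fat absorption from 5 to 2 and proximal intestine from 5 to 3. With the library number within each preparation as a further term, chosen after the data were seen, 4315 genes were higher (33%) and 4017 lower (30.7%). Type I interferon genes lower then went from 8 to 17, plasma cell from 5 to 8 and goblet cell from 5 to 8, and among genes called higher ribosomal protein went from 1 to 8, crypt stem cell from 5 to 8, endocrine from 4 to 7, nuclear oxidative phosphorylation from 0 to 5 and NF-kB from 3 to 5.

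Apart from the lists, 2367 genes met the rule for a large rise without overlap and 2548 the rule for a fall. By fitted log2 the 12 largest rises were of Aqp8, Sult6b2, Tmprss15, Cyp4a10, Rn7sk, Cyp2c66, Akp3, Onecut2, Cyp2c29, Fosb, Otop3 and Reg1, and the 12 largest falls of Des, Myl9, Actg2, Cnn1, Myh11, Fabp4, Slc6a14, Acta2, Sparcl1, Saa1, Cfd and Car3. Most of the falls are genes of muscle, fat or stroma. Aqp8, a water channel of the epithelium (gene ID 11833, GRCm38.p6 chromosome 7, 123462294 to 123468003), had 0 reads in all 4 tissue libraries and 16.9, 18.0, 21.9 and 6.23 CPM in IEL preparations, where it was at least 229.8-fold higher. Tmprss15, the enteropeptidase of the duodenum that activates trypsinogen, also had 0 reads in tissue and was at least 88.2-fold higher. Reg1, a regenerating protein, was at 2.65, 2.61, 3.65 and 4.60 CPM in tissue and 502, 513, 491 and 246 CPM in IEL preparations, and 130.5-fold higher (log2 7.03, SE 0.36, edgeR adjusted p = 4.25e-05). Akp3, an intestinal alkaline phosphatase, was at 0.497, 0.766, 1.73 and 0.438 CPM in tissue and 106, 186, 283 and 168 CPM in IEL preparations, and 214-fold higher (log2 7.74, SE 0.42, edgeR adjusted p = 4.69e-05). Rn7sk, the 7SK RNA that holds back transcription elongation, was at 0.166, 0.153, 0.305 and 0.219 CPM in tissue and 49.7, 72.7, 49.5 and 57.5 CPM in IEL preparations. It has no poly(A) tail, and it was 266-fold higher (log2 8.06, SE 0.26, edgeR adjusted p = 1.03e-05). Among the falls, Saa1, an acute phase protein that enterocytes make on contact with bacteria, was at 479, 936, 651 and 4571 CPM in tissue and 0.0809, 0.188, 0.0928 and 4.50 CPM in IEL preparations. KO tissue replicate 2 and KO IEL replicate 2 were the highest of their preparation. The difference was 1629-fold lower (log2 -10.67, SE 1.18, edgeR adjusted p = 0.00038), and log2 was -11.38 with KO tissue replicate 1 left out, -9.61 with KO tissue replicate 2 left out and -13.24 with KO IEL replicate 2 left out. Slc6a14, an amino acid transporter, was at 5.30, 371, 78.6 and 639.6 CPM in tissue and 0.162, 0, 0 and 0.173 CPM in IEL preparations, and 2721-fold lower (log2 -11.41, SE 1.85, edgeR adjusted p = 0.00168). For Slc6a14 log2 was -10.73 with WT tissue replicate 2 left out, -10.40 with KO tissue replicate 2 left out and -12.10 with WT IEL replicate 1 left out.

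Lamina propria lymphocyte (LPL) preparations of the same genotypes, extracted with the cell kit, allowed IEL preparations to be set against another cell preparation. In a fit of 12 libraries 1691 of 14716 genes (11.5%) were higher in IEL than in LPL preparations and 1165 (7.92%) lower by edgeR. Leaving out 1 library brought these to 797 and 493 without KO LPL replicate 1, 790 and 477 without WT IEL replicate 2, 831 and 489 without KO IEL replicate 2 and 1138 and 644 without KO IEL replicate 1. Of the immediate early genes 10 of 15 were lower in IEL than in LPL preparations and 0 higher. Fosb was 1424 to 1573 CPM in LPL and 540.5 to 669.6 CPM in IEL preparations of this fit (log2 IEL minus LPL -1.29, SE 0.27, edgeR adjusted p = 0.0114). The peptidase and amino acid transporter genes, which had been lower against tissue, were higher against LPL in 16 of 16 cases, and Mep1a was 13.7 to 33.0 CPM in LPL preparations (log2 IEL minus LPL 1.48, SE 0.29, edgeR adjusted p = 0.00823). T cell genes were higher than in LPL in 11 of 17 cases, and Cd3e was 0.346 to 5.93 CPM there (log2 IEL minus LPL 4.84, SE 0.63, edgeR adjusted p = 0.00141). Onecut2 did not pass, at 40.0 to 55.7 CPM in LPL preparations (log2 IEL minus LPL 0.37, SE 0.16, edgeR adjusted p = 0.125), nor did Fabp6 (log2 IEL minus LPL 0.60, SE 0.33, edgeR adjusted p = 0.229). Exocrine pancreas genes were lower in IEL than in LPL preparations in 14 of 14 cases. Against LPL, macrophage genes gave 2 higher and 1 lower of 14, and MHC class II genes 0 higher and 0 lower of 9. Genes of the mitochondrial genome gave 0 higher and 0 lower of 9, and clock genes 4 higher and 0 lower of 16. Both comparisons use the same IEL libraries.

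The difference between preparations was also compared between genotypes. In that test 0 of 14177 genes (0%) passed by edgeR. An unadjusted p under 0.05 was found for 91, fewer than this threshold would pass if no gene differed. DESeq2's Wald test and the edgeR fit without a filter on low counts each called 1, the immunoglobulin segment Ighv1-19, named here after its values were seen. The library number within each preparation was then added as a further term, which leaves 2 residual degrees of freedom. In that fit 762 genes had an unadjusted p under 0.05 by edgeR. It called 3 genes (0.0212%), Gsdmc2, Gsdmc3 and Gsdmc4, also named after their values were seen. These neighbouring copies of a gasdermin gene can share reads. Gsdmc3 was at 155.5, 11.4, 77.8 and 3.50 CPM in tissue and 12.6, 20.9, 67.6 and 103 CPM in IEL preparations. Within each library number WT lay above KO in tissue and below it in IEL preparations. The IEL minus tissue difference of Gsdmc3 was 3.56 higher in KO on the log2 scale in that fit (SE 0.25, edgeR adjusted p = 0.0283) and 3.35 without the term (SE 1.96, edgeR adjusted p = 1). Fitted alone, the 4 WT libraries gave 648 genes higher and 957 lower in IEL preparations, and the 4 KO libraries 1053 and 1791. With 2 libraries in each group, a difference between genotypes in single genes was hard to detect, and its absence was not shown.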

How the data were processed

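Poly(A) RNA of whole small intestine and of IEL and LPL preparations had been made into libraries with a NEBNext Ultra II RNA kit, per the labels' protocols. The authors deposited raw counts of reads for each Entrez ID and library. HISAT2 made the alignments, per the file headers, whereas TopHat is the aligner in the submitters' processing notes, which also name featureCounts, DESeq and build mm10. Whether the counting used strand is not given in the sources used here. The other 24 samples of the series were not used here. Symbols were matched to 25275 of 27179 IDs (99.17% of reads) through a RefSeq table of GRCm38.p6, which also gave coordinates and promoter sequences (32851 promoters of 27025 genes, of which a match in any counted).

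Groups and replicate numbers came from the sample titles. Counts of the 8 IEL and tissue libraries were fitted as genotype plus preparation with edgeR 4.0.16 (R 4.3.3, limma 3.58.1): TMM factors, filterByExpr by preparation, quasi-likelihood test with 5 residual degrees of freedom, Benjamini-Hochberg adjustment over all genes tested, threshold 0.05. The genotype difference was tested as an interaction, and IEL against LPL in a fit of 12 libraries as 6 groups. CPM use TMM factors, those for LPL from the fit of 12. The fit was tested on simulated independent libraries with few genes changed and the same dispersion in every gene. Those libraries did not differ by number as these did, so the error rate in the present data was not tested. Where a preparation had 0 reads, a fold is a bound set against 3 counts over the group. With 1 to 3 reads it is a ratio of summed reads with a 95% exact binomial interval. Such intervals cover counting error only. Tables and figures used Python 3.11.15 with pandas 2.3.3 and SciPy 1.17.1.

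The comparison, the 57 gene lists (724 symbols, 616 tested) and the naming rule were chosen with earlier results of these data known, so lists are described by counts and medians beside all genes. Named genes were the 12 largest rises and 12 largest falls among genes that passed, averaged 5 CPM or more in the higher preparation and had no overlap between preparations (predicted genes, pseudogenes, receptor and immunoglobulin segments and Y-linked genes excluded), plus up to 4 members with the smallest p and those against the list's direction in each list described, and 8 fixed markers, of which 1 is not reported here. Other genes named in a list were added after their values were seen. Alternatives were other scalings and filters, DESeq2 1.42.0, a test against a 2-fold change, a replicate block, each genotype alone, the 12-library fit and leaving out libraries. Leaving out both IEL libraries of a number or the mitochondrial genome, and the library number within each preparation as a term, were added after the data were seen.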

Additional observations from a re-analysis of the deposited data

Results flagged for a closer look

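Among the genes named above, 14 of 256 groups of 4 libraries (1 gene in 1 preparation) held a library whose gap to its nearest neighbour was, as a share of the group's range, over Dixon's 95% critical value. Chance flags about 1 in 20 such groups, which is close to this share. KO tissue replicate 2 was furthest in 4 of these: Saa1 at 4571 CPM against 479 to 936 in the other 3 libraries, Oas1a at 85.3 against 32.2 to 40.0, Slc25a20 at 137.5 against 104 to 109 and Per3 at 12.1 against 15.4 to 15.9. WT tissue replicate 2 stood apart in Aldoa at 764.5 CPM against 1016.5 to 1053, in Lgr5 at 8.05 against 4.06 to 4.64 and in Per1 at 23.1 against 36.3 to 38.1. WT tissue replicate 1 was lowest in Naaladl1, at 2103 against 3651 to 3899. KO tissue replicate 1 was highest in Ccr9, at 4.06 CPM against 2.49 to 2.63. Among IEL preparations, KO replicate 1 was lowest in Fabp6, at 75.8 CPM against 191 to 201, and highest in Mcpt1, at 93.9 against 36.1 to 42.2. KO IEL replicate 2 was lowest in Reg1, at 245.7 CPM against 491 to 513, and highest in Saa1, at 4.50 against 0.0809 to 0.188. WT IEL replicate 2 was highest in Pdx1, at 9.77 CPM against 5.36 to 5.99. What set these libraries apart was not tested.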

How the results depend on the processing

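The counts of 3188 genes higher and 3304 lower in IEL preparations stayed within 1.5 times under other scalings, filters, DESeq2, the fit of 12 libraries and the leaving out of 1 library. They were 625 and 973 when tested against a 2-fold change, 648 and 957 in WT libraries alone, 1053 and 1791 in KO libraries alone, 1932 and 2008 without both IEL libraries numbered 1, and 2038 and 2438 without both numbered 2. Leaving out 1 library gave 2475 to 3087 higher and 2773 to 3544 lower. With the replicate number as a block they were 3552 and 3489. Libraries of the same number in tissue and IEL preparations correlated at 0.15 in WT and 0.0917 in KO over 13069 genes after removal of group means. Those numbered 2 differed in sex by Ddx3y, and those numbered 1 did not. The labels do not name the animals, and numbers were not taken to pair libraries. The difference between genotypes gave 0 genes in each fit with 1 library left out, 1 by DESeq2's Wald test, 1 without a filter and 3 with the library number within each preparation as a term, a fit that gave 4315 higher and 4017 lower against tissue. Against LPL preparations leaving out 1 library gave 790 to 1562 higher and 477 to 1081 lower, and the replicate block gave 1304 and 746. Of 1349 values for 54 lists 1249 moved by less than 1 SD of the list's median between libraries of a preparation, 42 of them, in 8 lists, with a change of sign. Medians that changed sign and moved by more were those of B cells (1.30 in KO libraries alone, -0.47 to 1.72 with 1 library left out, 1.99 without both tissue libraries numbered 1), dendritic cells (-0.25 among genes averaging 5 CPM or more), exocrine pancreas (-0.91 in WT libraries alone, -0.51 to 0.14 with 1 library left out, -0.83 without both tissue libraries numbered 2, -0.50 without both IEL libraries numbered 2), tuft cells (0.66 without both tissue libraries numbered 1), endocrine cells (-0.15 among genes averaging 5 CPM or more) and NF-kB (0.43 in WT libraries alone, -0.28 to 0.20 with 1 library left out, 0.31 without both tissue libraries numbered 2). Among named genes Cd8b1 became -0.01 without both IEL libraries numbered 2. With 1 library left out these medians moved furthest without WT tissue replicate 1 (B cells) and without KO tissue replicate 2 (exocrine pancreas and NF-kB). The cause was not tested. Depth limited genes near 1 CPM, such as Cdh5. Without both libraries of a number, calls of further named genes were lost in at least 1 fit, with the direction kept. These genes were Muc2, Cyp3a13, Cd36, Cxcl11, Gcg, Ifih1, Pcna, Fabp1 and Car3.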
